A study of Morus alba with 35 samples.

Results

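A set of 37 genes of white mulberry (Morus alba) was examined, out of 31401 annotated genes, that were raised in cultured cells 0.5 h after elicitation and whose elicited and control levels lay close together at 48 and 72 h. Members were chosen on CPM, the count of a gene per 1e6 counts of its library, and on L, the log2 ratio of the elicited mean to the control mean after adding 1 CPM to each. Membership required an elicited mean of at least 5 CPM and an L of at least 0.8 at 0.5 h, with every elicited library above both controls at that time. It also required an absolute L below 0.5 at 48 and at 72 h, and a control mean of at least 1 CPM at some time. Levels at 0.5, 48 and 72 h therefore chose the genes and are given as a description, with no test, while the libraries of 6, 12 and 24 h had no part in the choice beyond the clause on control means. The working name of the set, genes raised only early, did not hold at the times between: 25 of the 37 (67.6%) were higher in elicited cells on average over 6, 12 and 24 h, beside 23.7% of all tested genes (edgeR quasi-likelihood test, Benjamini-Hochberg adjusted p below 0.05, the criterion for every call here). The count was 173 of 205 (84.4%) among the other genes that met the clauses on 0.5 h and on control means. The set is called here the genes raised at 0.5 h.

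The cells were suspensions grown from stem callus, and the study asked about elicitation at different times. Elicited flasks received 50 mM methylated beta-cyclodextrin (MBCD) and 100 µM methyl jasmonate (MeJA, dissolved in ethanol), with 3 libraries each at 0.5 and 6 h and 4 each at the 4 later times, 12, 24, 48 and 72 h. Control flasks received 2.1 µL of ethanol per mL and no elicitor, and gave 2 libraries at each time. All flasks held 8 g of washed cells of a suspension 14 days old in 32 g of fresh medium, at 25 °C in the dark, so the handling of the cells and the ethanol were common to both treatments. No library of cells given a single elicitor was analysed here, so the parts played by MeJA and MBCD cannot be told apart. Each library came from a flask of its own. The labels are silent on the parent suspensions of the flasks, so a p-value reflects how much flasks varied. Library totals lay between 17191217 and 18897243 counts. In bulk RNA, fewer cells of a kind and less RNA per cell cannot be told apart.

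Jasmonates are plant hormones of wounding and defence. Their active form is bound by the COI1 receptor together with JAZ repressor proteins, which are then degraded, releasing transcription factors of the MYC2 type, and in many plants the first transcripts to rise are those of the pathway's own regulators and of JAZ repressors that restrain the response. Cyclodextrins are cyclic sugars that elicit defence compounds, stilbenes among them, in cultured cells of several plants, and mulberry makes the stilbene oxyresveratrol. The deposited table pairs its identifiers with exon coordinates and with no gene names, so no member could be assigned to these or other functions, and members are described by identifier or by position and structure. Coordinates are those of the deposited table.

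The members had few exons. A single exon was annotated for 16 of the 37 members (43.2%), against 3174 of the 20107 genes tested (15.8%) and 1450 of the 12938 tested genes with an elicited mean of at least 5 CPM at 0.5 h (11.2%). The share was also high, 79 of 205 (38.5%), among the other genes that met the clauses on 0.5 h and on control means but not those on 48 and 72 h. The median member had 2 exons and 1180 exon bases, and the members ranged from 1 to 14 exons and from 288 to 2421 exon bases. The median tested gene had 5 exons and 1585 exon bases. Members lay on all 14 chromosomes and 1 scaffold, with 5 each on chromosomes 4 and 5 and 4 on chromosome 10, and 17 were on the plus strand. No members were next to each other, the closest pair being 11 genes and 105215 bases apart on chromosome 5. Among the 74 annotated genes directly beside a member, 6 (8.11%) also met the clauses on 0.5 h and on control means, against 0.771% of all genes. Of the members 2 (5.41%) shared exon bases with another gene, against 10% of tested genes.

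At 0.5 h the members' elicited means covered a wide range. Per kilobase of exon they lay between 4.10 CPM in a 9-exon gene of chromosome 5 and 316 CPM in a 2-exon gene of chromosome 14, with a median of 25.0 CPM per kilobase. L had a median of 0.94 and a greatest value of 2.06. In the fit of all genes 21 members were called higher at 0.5 h, beside 2.34% of all tested genes, but the choice of members used that contrast and nothing is read from the count. The lowest of the 3 elicited libraries was replicate 1 for 25 of the 37 members, against 24.7% of all tested genes, and the highest was replicate 3 for 20. Whether this library difference bears on the size of the rise was not tested.

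The gene with the greatest L at 0.5 h was Mal_HE_154X_1_chr005g003940, a single-exon gene of 2421 bases (chromosome 5, 3566197 to 3568617, plus strand). It had 16.4, 27.1 and 20.7 CPM in the 3 elicited libraries at 0.5 h and 4.24 and 4.52 CPM in the 2 controls. The lowest elicited library was thus over 3 times the higher control. At 6 h it had 3.83, 2.50 and 2.95 CPM in elicited cells, against 2.09 and 2.15 CPM in controls, and at 12 h 5.05, 3.83, 3.57 and 6.91 CPM in elicited cells, against 3.72 and 5.0 CPM in controls. The groups did not overlap at 6 h and overlapped at 12 h. At 24 h it had 1.99, 2.15, 1.71 and 2.54 CPM in elicited cells and 1.67 and 2.44 CPM in controls, again with overlap. The mean log2 fold change over 6, 12 and 24 h was 0.41 ± 0.28 (SE), which did not pass the test (edgeR adjusted p = 0.236). The call changed with the libraries fitted, since a fit of the 6, 12 and 24 h libraries alone gave 0.42 with an adjusted p of 0.0464.

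Next by L was Mal_HE_154X_1_chr010g016140, a 4-exon gene of 426 exon bases (chromosome 10, 14016589 to 14017652, minus strand). Its elicited libraries at 0.5 h had 7.90, 25.8 and 22.1 CPM, and its controls 4.87 and 5.13 CPM, for an L of 1.71. Replicate 1 was the low elicited library and lay nearer to the controls than to the other elicited libraries. By 6 h the elicited libraries had 3.32, 1.65 and 1.89 CPM and the controls 1.82 and 1.70 CPM, which overlapped. At 24 h they were 2.49, 2.75, 2.98 and 2.54 CPM in elicited cells and 2.59 and 2.33 CPM in controls, which overlapped as well. Over 6, 12 and 24 h the mean log2 fold change was 0.49 ± 0.22 (SE), with an adjusted p of 0.0738, so the gene was not called by edgeR. The fit of the 17 libraries of those times alone called it, with an adjusted p of 0.0276, as did fits without elicited 0.5 h replicate 1 (0.0171), without elicited 6 h replicate 2 (0.0443) or without control 12 h replicate 1 (0.0499).

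**Figure D1:**
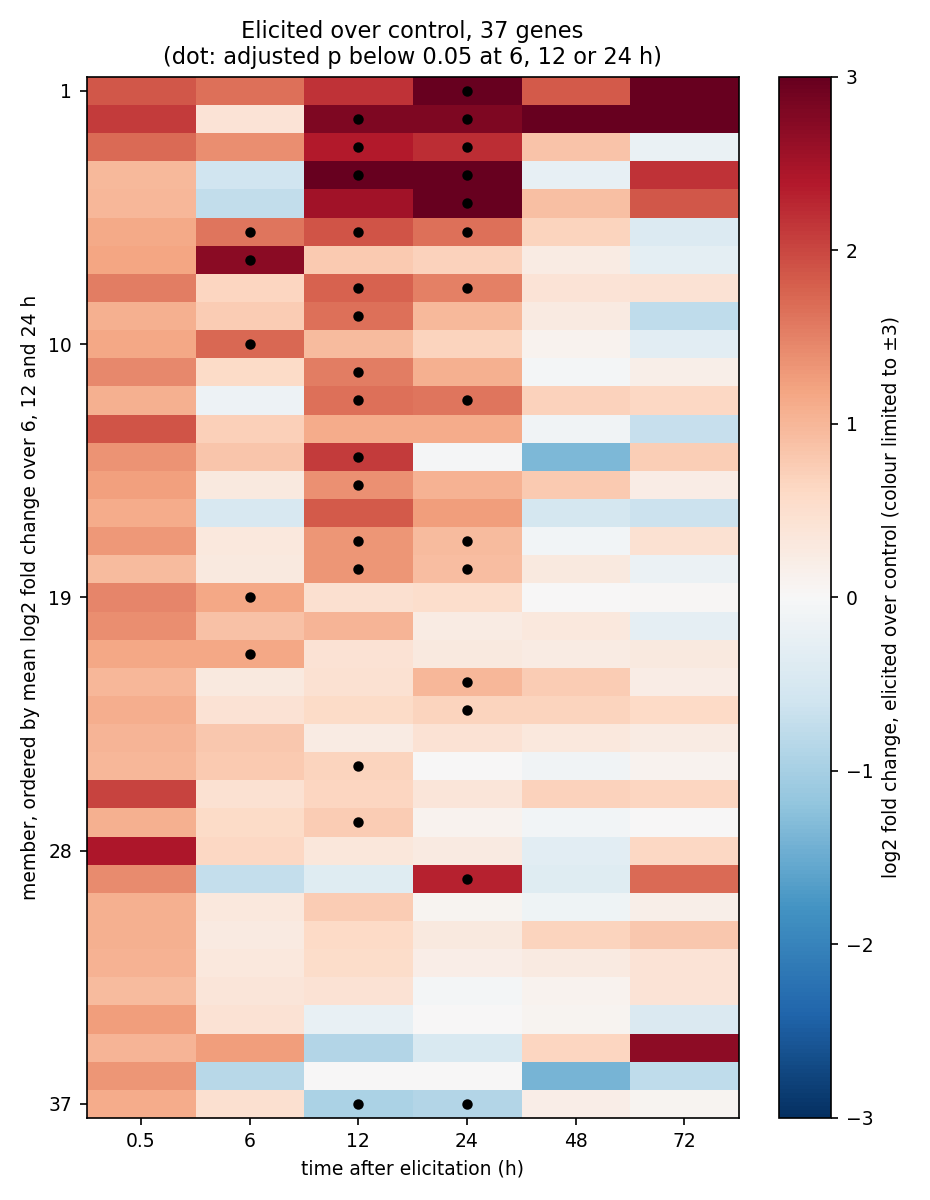
Fitted log2 fold change of elicited over control cells for each of the 37 members (down the page) at each time in hours (across), from 1 edgeR fit of all genes, with dots where a gene was called at 6, 12 or 24 h at an adjusted p below 0.05. Columns at 0.5, 48 and 72 h were used to choose the members, and at 6, 12 and 24 h the 37 genes had medians of 0.47, 0.79 and 0.67.

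At 6, 12 and 24 h the fitted log2 fold change was above 0 for 31, 33 and 33 members, beside 48.4%, 48.8% and 50.2% of tested genes. Most of these members were not called at the single times. The fitted log2 fold change was above 0 at all 3 times for 26 and below 0 at all 3 for none, joint counts not made over all tested genes. Its median over members was 0.47 at 6 h (range -0.83 to 2.70), 0.79 at 12 h (-0.96 to 3.18) and 0.67 at 24 h (-0.88 to 3.60), where the medians over all tested genes were -0.01, -0.01 and 0.00. Beside the 25 members called higher on average over the 3 times, 1 was called lower, beside 21.1% of tested genes. Leaving out each library of 6, 12 or 24 h in turn, with the 37 kept, gave between 20 and 27 members higher. Leaving out each library of 0.5, 48 or 72 h, with members chosen again, gave 18 of 32 at the lowest and 37 of 57 at the highest. Scaling by library size alone, in place of the trimmed mean of M values (TMM), moved the median of all genes to -0.09 at 6 h, -0.22 at 12 h and -0.22 at 24 h. Under that scaling 31, 32 and 27 members were above 0 and 20 were higher on average.

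The number of calls differed between times. At 6 h 5 members (13.5%) were called higher, beside 3.64% of tested genes, and none lower, beside 2.6%, by edgeR, with none lower at an unadjusted p below 0.05 and none lower by DESeq2. Calls at 12 h were 14 higher (37.8%, beside 12.8%) and 1 lower (beside 10.2%). At 24 h there were 13 higher (35.1%, beside 21.7%) and 1 lower (beside 17.9%). Counted without a model, every elicited library lay above both controls for 15 members at 6 h, 14 at 12 h and 17 at 24 h, beside 12.3%, 12.0% and 20.7% of tested genes. All elicited libraries lay below both controls for 1, 1 and 2 members, beside 21.8%, 40.4% and 45.7%. In all 23 members were called higher at 1 or more of the 3 times: 4 at 6 h alone, 6 at 12 h alone, 5 at 24 h alone, and 8 at 12 and 24 h, 1 of which was called at 6 h too. A further 13 were called in neither direction at these times, and 10 of them not on average either. These combined patterns were not counted over all tested genes, so nothing particular to the members is read from them. The splits between times rest on thresholds and not on a test of the difference.

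The counts of members called higher moved when single libraries were left out. The share of all tested genes called in these refits was not counted, so the moves are not read as particular to the members. Leaving out a control also left a single control library at its time. The 5 genes higher at 6 h became 2 when elicited 6 h replicate 1 or either control library of 6 h was left out. They became 10 without elicited 0.5 h replicate 1 and 8 without control 0.5 h replicate 2, where the members were chosen again. The 14 at 12 h became 7 without elicited 12 h replicate 4 and 5 when either control library of 12 h was left out, and 9 with scaling by library size. The 13 at 24 h became 8 without elicited 24 h replicate 4, 2 when control 24 h replicate 1 was left out and 4 when control 24 h replicate 2 was. They became 8 with members chosen again in the absence of control 48 h replicate 2. With members chosen again, 0 were lower at 12 h, at 24 h or on average without elicited 0.5 h replicate 3 or control 0.5 h replicate 1. At 12 h 2 were lower without elicited 0.5 h replicate 1 or control 48 h replicate 2. At 24 h 2 were lower without elicited 0.5 h replicate 1 or elicited 48 h replicate 2 or 3, and 4 when control 48 h replicate 2 was left out. On average 2 were lower when elicited 48 h replicate 2 was left out and 3 when control 48 h replicate 2 was. Elicited 6 h replicate 1 was the highest of its group for 30 members (31.2% of all tested genes) and elicited 12 h replicate 4 the highest for 26 (45.6%). With these 2 libraries left out, an alternative chosen after seeing the data, 2 members were higher at 6 h, 8 at 12 h, 17 at 24 h and 19 on average.

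**Figure D2:**
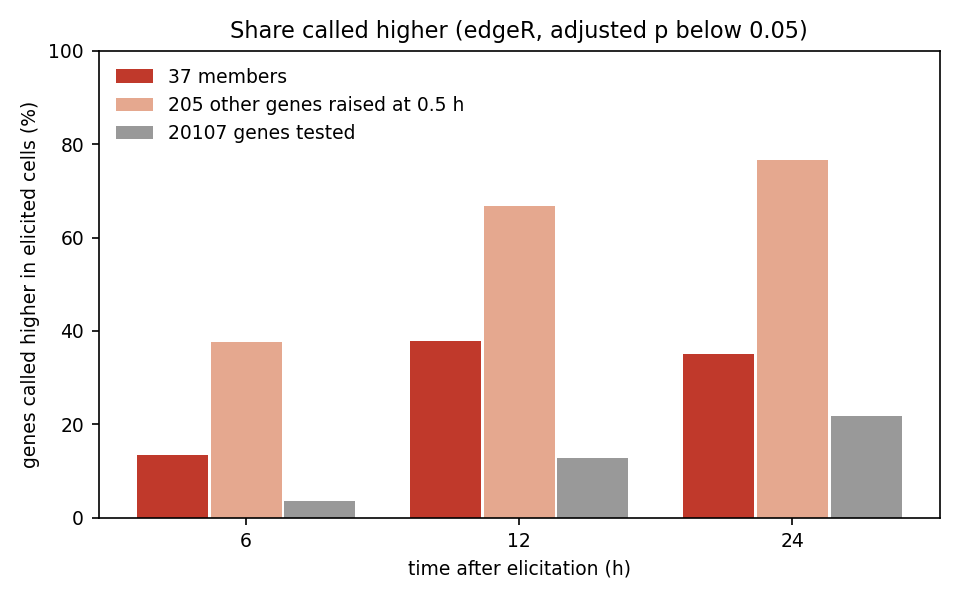
Percentage of genes called higher in elicited than in control cells (edgeR, adjusted p below 0.05) at 6, 12 and 24 h, for the 37 members, the 205 other genes that met the clauses on 0.5 h and on control means, and all 20107 genes tested. Members were at 13.5%, 37.8% and 35.1%, the 205 other genes at 37.6%, 66.8% and 76.6%, and all tested genes at 3.64%, 12.8% and 21.7%.

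The genes described from here on, 13 of them beside the rule-named pair with the highest mean, were chosen after their values were seen. Among the 5 members higher at 6 h, the smallest adjusted p was that of a 14-exon gene of 2353 exon bases (chromosome 10, 229020 to 234033, minus strand). It had 408, 459 and 458 CPM in elicited cells at 0.5 h, against 208 and 225 CPM in controls. At 6 h its elicited libraries had 428, 249 and 226 CPM and its controls 126 and 159 CPM, so the groups stayed apart, with replicate 1 the highest. The log2 fold change at 6 h was 1.16 ± 0.21 (SE; edgeR adjusted p = 0.000922). By 24 h elicited cells had 166, 197, 180 and 165 CPM and controls 170 and 167 CPM, overlapping (0.30, adjusted p = 0.223). The effect was 0.85 smaller on the log2 scale at 24 h than at 6 h, by a test of that difference (adjusted p = 0.0313).

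A 10-exon gene of chromosome 4 (10584646 to 10588726, plus strand) had the highest elicited mean of any member at 6 h per kilobase of exon. Its elicited libraries then had 2072, 595 and 621 CPM and its controls 302 and 406 CPM. All elicited libraries were above the controls, and replicate 1 was over 3 times the others. At 12 h they had 102, 71.4, 170 and 290 CPM, against 86.1 and 99.8 CPM in controls, with overlap. Its log2 fold change came to 1.72 ± 0.45 (SE) at 6 h (edgeR adjusted p = 0.0207) and 0.95 at 12 h (adjusted p = 0.107). Between 6 and 24 h the gene fell by 3.15 on the log2 scale in elicited cells (adjusted p = 6.1e-08) and by 2.10 in controls (adjusted p = 0.000643).

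The greatest fold change at 6 h was that of a single-exon gene of 1068 bases (chromosome 5, 18562738 to 18563805, plus strand). It had 132, 41.6 and 44.2 CPM in elicited cells and 11.9 and 11.9 CPM in controls, a log2 fold change of 2.70 ± 0.49 (SE; edgeR adjusted p = 0.00115). The elicited libraries were all above their own group's range at 0.5 h, which was 34, 19.4 and 32.7 CPM against 12.0 and 15.6 CPM in controls. By 12 h the groups overlapped, at 7.52, 5.97, 19.9 and 22.4 CPM in elicited cells and 8.85 and 9.54 CPM in controls. At 24 h its effect was smaller than at 6 h by 2.02 on the log2 scale (adjusted p = 0.0283). The remaining pair called at 6 h was a single-exon gene of chromosome 9 (18329158 to 18331279, minus strand) and a 3-exon gene of chromosome 8 (7797640 to 7800348, minus strand). The chromosome 9 gene had 8.15, 4.76 and 4.67 CPM in elicited cells, against 2.79 and 2.77 CPM in controls (log2 fold change 1.16 ± 0.31, SE; edgeR adjusted p = 0.0213). The groups were apart, with replicate 1 highest again.

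The 3-exon gene of chromosome 8 was the one member called higher at all 3 times. Its elicited libraries had 12.0, 5.39 and 5.29 CPM at 6 h, against 2.68 and 2.60 CPM in controls. At 12 h they had 0.689, 0.507, 1.04 and 3.01 CPM against 0.451 and 0.349 CPM in controls, and at 24 h 0.665, 0.716, 2.27 and 2.32 CPM against 0.647 and 0.443 CPM in controls. In CPM the groups did not overlap at any of these times, but the margins were thin at 12 and 24 h. The lowest elicited library had 9 counts at 12 h, against 8 in the higher control. At 24 h both of these had 12 counts. Between 6 and 24 h the level fell by 2.48 on the log2 scale in elicited cells (adjusted p = 9.88e-06) and by 2.52 in controls (adjusted p = 0.00185). The log2 fold changes were 1.60, 1.88 and 1.65 (edgeR adjusted p = 0.0454, 0.0443 and 0.0359 at 6, 12 and 24 h). With scaling by library size these p-values were 0.0669, 0.0605 and 0.0663, so none of the 3 calls held under that scaling.

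Other members were not called at 6 h and were called higher at 12 and 24 h. Among them only the single-exon gene of 549 bases had an effect called different between 24 and 6 h. For the others the adjusted p of that difference lay between 0.0734 and 0.552 (edgeR), so a later start is not read from these calls. A single-exon gene of 594 bases (chromosome 14, 7198827 to 7199420, plus strand) had 79.1, 117 and 141 CPM in elicited cells at 0.5 h, against 44.6 and 40.1 CPM in controls. At 6 h it had 43.3, 41.2 and 39.4 CPM in elicited cells, against 23.5 and 32.1 CPM in controls (log2 fold change 0.64, edgeR adjusted p = 0.213). The groups were apart there, although the gene was not called. At 12 h it had 51.3, 56.6, 51.2 and 47.0 CPM in elicited cells and 19.5 and 15.3 CPM in controls, and at 24 h 42.5, 51.2, 35.1 and 32.7 CPM in elicited cells and 15.1 and 18.5 CPM in controls. Every elicited library was above every control by a wide margin at both times. The log2 fold changes were 1.77 ± 0.30 and 1.5 ± 0.29 (SE; adjusted p = 8.68e-05 and 0.000156 at 12 and 24 h). Controls fell by 1.01 on the log2 scale between 6 and 24 h (adjusted p = 0.00935), and elicited cells changed by -0.14 (adjusted p = 0.64). The difference between these 2 changes, 0.87 ± 0.40 (SE), did not pass the test (edgeR adjusted p = 0.144).

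The neighbouring part of chromosome 14 held a 2-exon gene (6521654 to 6523973, plus strand) with the highest level per kilobase of all members at 0.5 h. It had 291, 636 and 588 CPM in elicited cells then, against 285 and 287 CPM in controls, so that replicate 1 was barely above them. At 6 h it had 153, 170 and 144 CPM in elicited cells and 125 and 144 CPM in controls (log2 fold change 0.28, edgeR adjusted p = 0.677). At 12 h it had 317, 351, 312 and 245 CPM in elicited cells and 140 and 142 CPM in controls, without overlap. Its log2 fold changes at 12 and 24 h were 1.33 ± 0.31 and 0.93 ± 0.30 (SE; adjusted p = 0.0025 and 0.016).

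A single-exon gene of 549 bases (chromosome 5, 10803145 to 10803693, minus strand) had 8.44, 7.54 and 7.46 CPM in elicited cells at 6 h and 7.93 and 10.2 CPM in controls. The groups overlapped, and the log2 fold change was -0.14 (edgeR adjusted p = 0.844). At 12 h it had 12.8, 17.3, 14.6 and 14.2 CPM in elicited cells, against 6.31 and 4.42 CPM in controls, and at 24 h 8.37, 10.7, 6.58 and 5.96 CPM in elicited cells, against 2.91 and 3.15 CPM in controls. All elicited libraries were above both controls at 12 and at 24 h. The log2 fold changes were 1.66 ± 0.30 and 1.61 ± 0.31 (SE; adjusted p = 0.000179 and 0.000151). The effect was 1.76 ± 0.42 (SE) greater at 24 h than at 6 h (adjusted p = 0.00401), and controls fell by 1.85 on the log2 scale between those times (adjusted p = 5e-05).

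Also called at 12 and 24 h and not at 6 h were a single-exon gene of chromosome 10 and a 2-exon gene of chromosome 7. The chromosome 10 gene (2647447 to 2648562, minus strand) had 22.6, 22.9, 21.5 and 20.6 CPM in elicited cells at 12 h and 9.35 and 10.8 CPM in controls, without overlap (log2 fold change 1.33 ± 0.29, SE; edgeR adjusted p = 0.00124). At 24 h its log2 fold change was 0.94 (adjusted p = 0.00959). The chromosome 7 gene (11865673 to 11867182, minus strand) had 6.13, 4.14 and 3.39 CPM in elicited cells at 6 h and 1.29 and 2.37 CPM in controls. Those groups did not overlap, although the gene was not called there (log2 fold change 1.39, edgeR adjusted p = 0.102). At 12 h it had 2.81, 2.54, 2.99 and 6.47 CPM in elicited cells and 0.620 and 0.989 CPM in controls (2.39 ± 0.55, SE; adjusted p = 0.00248). It too stayed apart at 24 h, with 1.61, 2.15, 2.32 and 1.32 CPM in elicited cells and 0.378 and 0.553 CPM in controls (2.20, adjusted p = 0.0054). A 2-exon gene of Scaffold65 (10839 to 11204, minus strand, 288 exon bases) had 1.09, 0.226, 0.748 and 13 CPM in elicited cells at 12 h and 0.732 and 0.174 CPM in controls. Those groups overlapped and replicate 4 stood apart, though the gene was called (3.18 ± 1.12, SE; adjusted p = 0.0406). Its mean log2 fold change over 6, 12 and 24 h was 1.90 (adjusted p = 0.0134). It was 0.98 (adjusted p = 0.0778) with elicited 6 h replicate 1 and elicited 12 h replicate 4 left out, and its adjusted p was 0.0512 without control 12 h replicate 2.

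**Figure D3:**
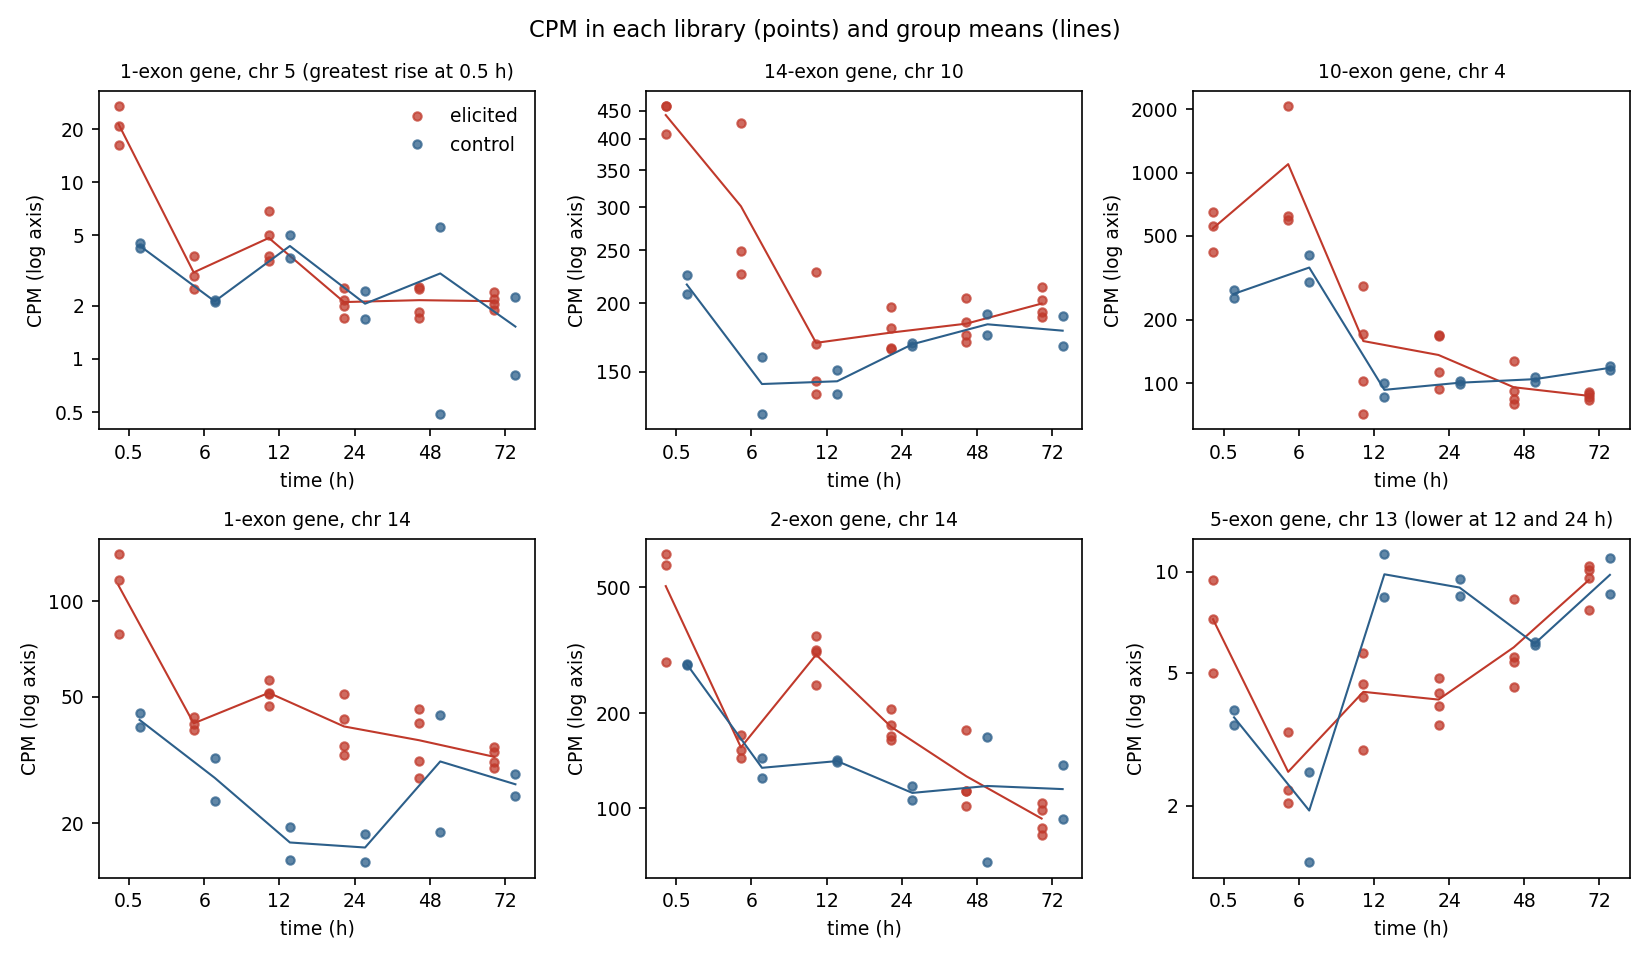
Level in CPM (log axis) of 6 members at each time in hours, with a point for each elicited and control library and lines through the group means. The 14-exon gene of chromosome 10 and the 10-exon gene of chromosome 4 have elicited points above the controls at 0.5 and 6 h, the genes of chromosome 14 at 0.5, 12 and 24 h, and the 5-exon gene of chromosome 13 has its elicited points below the controls at 12 and 24 h.

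The highest mean fold changes over 6, 12 and 24 h belonged to low-level genes of chromosome 6. Of the 21 members called higher on average with a positive fold change at all 3 times, a single-exon gene of 873 bases (18739140 to 18740012, plus strand) came first, at a mean log2 fold change of 2.48 ± 0.62 (SE; edgeR adjusted p = 0.00194). At 6 h it had 2.36, 0.510 and 0.612 CPM in elicited cells and 0.268 and 0.508 CPM in controls. The lowest elicited library and the higher control had 9 counts each. It was not called at 6 h (log2 fold change 1.66, edgeR adjusted p = 0.22) or 12 h (2.18, adjusted p = 0.108). At 24 h (3.60, adjusted p = 0.0457) it had 1, 14, 8 and 3 counts in the 4 elicited libraries and 1 and 0 in the 2 controls. The pooled 26 counts against 1 gave a ratio of 13.1 after division by the library totals (exact 95% interval 2.16 to 539, for counting error only). The second, a single-exon gene of 810 bases (6363017 to 6363826, minus strand), had a mean of 2.01 ± 0.40 (SE; adjusted p = 0.000208). It had 1.38, 1.80, 1.15 and 0.669 CPM in elicited cells at 12 h and 0.282 and 0.116 CPM in controls, without overlap (2.81 ± 0.67, SE; adjusted p = 0.00328). No count was found in its controls at 48 h, against 25 over the elicited libraries (5, 4, 5 and 11). With the control group set at 3 counts, the gene was 4.31-fold higher there, a description at a time that the choice used. Its L at 48 h was 0.43, within the limit of 0.5, because 1 CPM is added to both means.

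The member called lower in elicited cells was the 5-exon gene Mal_HE_154X_1_chr013g002610 (chromosome 13, 2420341 to 2422820, plus strand). At 0.5 h it had 4.99, 7.23 and 9.44 CPM in elicited cells and 3.50 and 3.86 CPM in controls. At 6 h it had 3.32, 2.04 and 2.23 CPM in elicited cells and 2.52 and 1.36 CPM in controls, with overlap. At 12 h it had 5.74, 4.23, 2.94 and 4.63 CPM in elicited cells and 8.39 and 11.3 CPM in controls, and at 24 h 4.82, 4.35, 3.48 and 3.97 CPM in elicited cells and 9.49 and 8.47 CPM in controls. Every elicited library was below both controls at those times. The log2 fold changes were -0.96 ± 0.26 and -0.88 ± 0.26 (SE; edgeR adjusted p = 0.0085 and 0.00856). Controls rose by 1.95 on the log2 scale between 6 and 24 h (adjusted p = 2.01e-05), and elicited cells differed by 0.60 (adjusted p = 0.0567). The effect at 24 h was 1.35 below that at 6 h (adjusted p = 0.0276). The 12 h call was lost without control 12 h replicate 2 and the 24 h call without control 24 h replicate 1, after each of which no member was lower at that time. Its mean over 6, 12 and 24 h, -0.46 (adjusted p = 0.028), was not called without elicited 6 h replicate 2 (0.059), elicited 6 h replicate 3 (0.0522), control 6 h replicate 1 (0.225), control 12 h replicate 2 (0.0994) or control 24 h replicate 1 (0.0683).

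Many of the members' transcripts fell with time in both treatments. The highest group mean was that of 0.5 h for 33 members in elicited cells and 30 in controls, beside 23.7% and 19.9% of all tested genes. Because the choice required a raised elicited level at 0.5 h, the elicited figure is a description, and the controls at 0.5 h entered the choice too. The median log2 ratio of 6 h to 0.5 h was -1.66 over members in elicited cells and -0.95 in controls, beside 0.04 and 0.02 over all tested genes. Between 6 and 24 h, times outside the choice, 25 members (67.6%) fell in elicited cells, beside 27.0% of tested genes, and none rose (beside 26.7%). None rose by DESeq2 either, and 1 was above 0 in elicited cells at an unadjusted p below 0.05. In controls 16 members (43.2%) fell, beside 28.3%, and 1 rose, beside 26.6%. Of the 205 other genes that met the clauses on 0.5 h and on control means, 86 (42.0%) fell in elicited cells and 42 (20.5%) rose. In controls 130 of those 205 (63.4%) fell, a greater share than of the members, and 10 (4.88%) rose. Over the same interval 13 members fell in both treatments, 12 were called in elicited cells alone and 3 in controls alone. Those splits rest on thresholds and not on a test of the difference. The median log2 difference between 24 and 6 h was -1.11 in elicited cells and -0.80 in controls.

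The counts that fell between 6 and 24 h depended on which members were chosen. For these refits too the share of all tested genes was not counted. Without elicited 0.5 h replicate 1, with members chosen again, 39 fell in elicited cells and 26 in controls, of 57 members, and 4 rose in each. The 1 member rising in controls became 0 without elicited 0.5 h replicate 3, 2 when elicited 48 h replicate 2 or 3 was left out and 3 when control 48 h replicate 2 was. In the absence of elicited 0.5 h replicate 2, 29 fell in controls, of 48 members. The count of members rising in elicited cells became 1 without elicited 6 h replicate 1, elicited 12 h replicate 3, elicited 24 h replicate 3, elicited 48 h replicate 2, 3 or 4, or control 0.5 h replicate 1, and 3 without control 48 h replicate 2. Relative to the mean of the controls at 0.5 h, the median member stood at 1.03 ± 0.19 in elicited libraries and 0.00 ± 0.02 in control libraries at 0.5 h on the log2 scale (mean and SD of library medians, which the choice set). At 6 h it stood at -0.55 ± 0.32 in elicited and -0.87 ± 0.30 in control libraries. At 12 h these were -0.75 ± 0.22 in elicited and -1.24 ± 0.01 in control libraries, and at 24 h -0.98 ± 0.12 in elicited and -1.40 ± 0.05 in control libraries. By 72 h the median member was at -1.43 ± 0.06 in elicited and -1.43 ± 0.26 in control libraries.

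**Figure D4:**
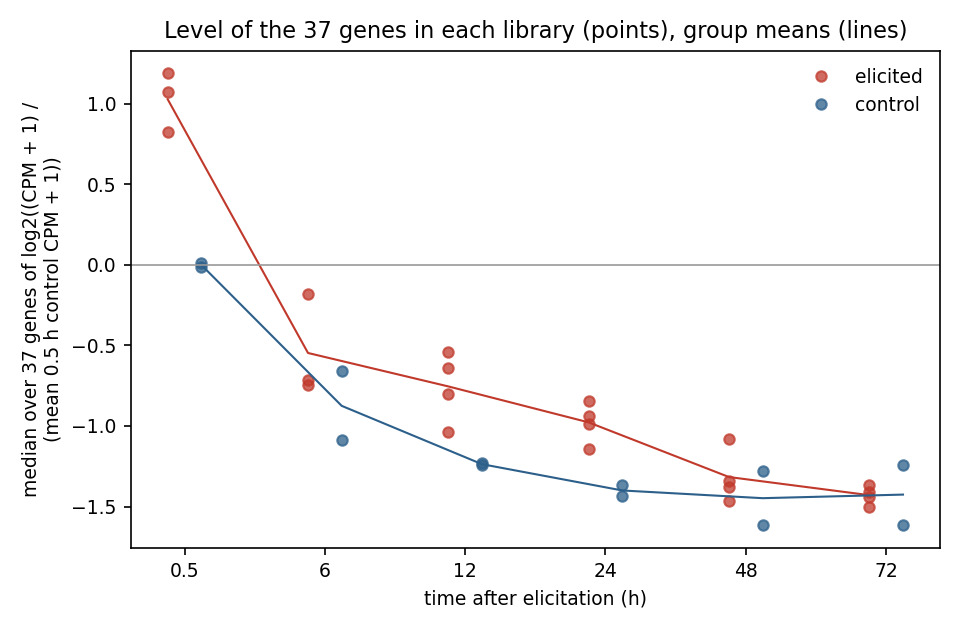
Median over the 37 members of log2 level relative to the 0.5 h controls (up the page), for each elicited and control library at each time in hours, with lines through the group means. Both treatments lie lower at every later time than at 0.5 h, where elicited cells are at 1.03 and controls at 0, and both end at -1.43 at 72 h.

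Few members had a difference between treatments that itself changed from 6 to 24 h. The effect was greater at 24 h for 2 members (5.41%, beside 10.2% of tested genes) and smaller for 3 (8.11%, beside 6.94%), shares that lie near those of all genes. Greater and smaller refer to the signed log2 fold change. The 3 smaller ones were the 14-exon gene of chromosome 10, the single-exon gene of 1068 bases of chromosome 5 and the 5-exon gene of chromosome 13. In the chromosome 13 gene the difference did not fade but changed sign. Its log2 fold change was 0.47 at 6 h (edgeR adjusted p = 0.478) and -0.88 at 24 h (adjusted p = 0.00856). The greater ones were the 549-base gene of chromosome 5 and a single-exon gene of chromosome 11 (2509724 to 2510353, plus strand). The chromosome 11 gene had 2.14, 2.44 and 1.84 CPM in elicited cells at 6 h, against 1.93 and 5.42 CPM in controls, and at 24 h 0.332, 0.606, 0.663 and 1.27 CPM in elicited cells, against 0.162 and 0.166 CPM in controls. The groups overlapped at 6 h and did not at 24 h, and the effect differed by 3.02 ± 0.92 (SE; edgeR adjusted p = 0.0216). Among the 205 other genes, 72 (35.1%) had a greater effect at 24 h and 10 a smaller one.

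These small counts changed with single libraries, and the share of all tested genes called in the refits was not counted. The 2 greater ones became 4 without control 6 h replicate 1, elicited 12 h replicate 2, elicited 48 h replicate 3 or control 48 h replicate 1, and 5 when elicited 12 h replicate 4 was left out. They became 1 without elicited 0.5 h replicate 3, control 6 h replicate 2, elicited 24 h replicate 4, either control of 24 h, elicited 48 h replicate 2, control 48 h replicate 2 or control 72 h replicate 2. The 3 smaller ones became 0 without elicited 6 h replicate 1 or either control of 24 h, 1 without either control of 6 h and 6 without control 48 h replicate 2.

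At 48 and 72 h the small L that the choice required did not mean equal levels in every member. There were 12 members below 1 CPM in both treatments at 48 and at 72 h, where the added 1 CPM holds L near 0. The fitted log2 fold change adds no such amount and uses TMM scaling, while L uses library totals. It was at least 0.5 in size at 48 or 72 h for 20 of the 37, 11 of those 12 among them. The scaling matters here too, since the median of all tested genes at 48 h was -0.24 by library size and -0.01 by TMM. At 72 h these medians were -0.14 and 0.00. The share of the gap between L and the fit due to each was not tested. By the fit 3 members were higher at 48 h (beside 26.5% of tested genes) and 3 at 72 h (beside 22.3%), contrasts that the choice used. The 2 controls of 48 h differed by at least 2-fold in CPM plus 1 for 9 members, against 1 at 0.5 h, 3 at 6 h, 1 at 72 h and none at 12 or 24 h. For 8 members the controls of 48 h lay on either side of all elicited libraries, as they did for 2 members at 6 h and 2 at 72 h. The share of all tested genes was not counted for either measure, and the choice itself used the means of 48 and 72 h. Whether these counts reflect the members or the control libraries was not tested. For Mal_HE_154X_1_chr005g003940 the controls of 48 h had 0.488 and 5.61 CPM, on either side of the elicited 1.71, 2.49, 1.83 and 2.57 CPM.

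Membership turned on values close to its limits and on single libraries. Just inside the limit on L at 0.5 h was a 2-exon gene of chromosome 3 (4715740 to 4716523), at 0.80, with means of 63.3 CPM in elicited cells and 35.9 CPM in controls. Just outside, at 0.797, was a 3-exon gene of chromosome 10 (17356805 to 17358563), with 32.9 CPM in elicited cells and 18.5 CPM in controls. On the elicited mean, a 9-exon gene of chromosome 5 (6070119 to 6073132) was inside with 5.17 CPM and a 7-exon gene of chromosome 4 (22514136 to 22516048) outside with 4.90 CPM. On the larger of the late L values, a 3-exon gene of chromosome 9 (16723817 to 16726174) was inside with 0.48 and a single-exon gene of chromosome 5 (4767764 to 4770319) outside with 0.51. With CPM on TMM-scaled library sizes 66 genes met the same clauses, 33 of the 37 among them. Without elicited 0.5 h replicate 1 there were 57 (31 shared with the 37), without replicate 2 there were 48 (31 shared) and without replicate 3 there were 29 (25 shared). Without control 48 h replicate 1 there were 29 (26 shared), and without replicate 2 there were 32 (25 shared). In all 242 genes met the clauses on 0.5 h and on control means, and 136 of the 205 that were not members had an L of at least 0.5 at both 48 and 72 h.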

How the data were processed

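RNA-seq libraries of elicited and control cell suspensions were grouped by treatment and time, giving 12 groups and 34 libraries. The authors deposited whole-number read counts per gene in 1 table, with no normalization. Reads were handled with fastp, STAR and featureCounts, per the submitters' processing notes. Not given in the sources used here are tool versions, the genome build, the annotation and the settings for strand and for reads that match more than 1 place, so counts of near-identical copies and of members sharing exon bases with another gene are uncertain. The mRNA library kit was a stranded one, per the labels' protocols. A pooled long-read sample is not analysed here.

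Of the 31401 genes 27266 had a count and 20107 passed filterByExpr (minimum count 10), with all 37 members among them, which also passed on the 17 libraries of 6, 12 and 24 h alone. One model was fitted to all 34 libraries in R 4.3.3 with edgeR 4.0.16 (TMM scaling, glmQLFit and glmQLFTest). P-values were adjusted by Benjamini-Hochberg over all genes tested within each contrast, and genes were called below 0.05. Each standard error is the size of the log2 fold change divided by the root of its F statistic. DESeq2 1.42.0, scaling by library size, no low-count filter, replicate blocks, the 6 to 24 h libraries alone, other choices of members and leaving out each library were the alternatives. The test was checked on simulated data, where it recovered 74% of 2-fold changes at 6 h and 77% at 24 h. Of 4-fold changes it recovered 97% and 95%, and it called 6 and 10 unchanged genes. A member that was not called may therefore still differ. The 36 pairs of libraries within groups had a chi-square per degree of freedom of 2.79 to 94.7, so each counted as 1 replicate.

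The members and lists were chosen with earlier results of these data known. The named genes were the 2 members with the greatest L at 0.5 h, the 2 with the highest mean log2 fold change over 6, 12 and 24 h among members called with a positive sign at all 3 times, and the 2 with the lowest such mean under a negative sign, for which 0 members qualified. Lists of gene functions were not run, since the table pairs no names with its identifiers. No sequence was read. Intervals and floors, 3 counts over a group, cover counting error only.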

Additional observations from a re-analysis of the deposited data

Results flagged for a closer look

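Differences between elicited and control cells that themselves differed between 24 and 6 h were tested by edgeR. The effect was greater at 24 h by 1.76 on the log2 scale in the 549-base single-exon gene of chromosome 5 (adjusted p = 0.00401) and by 3.02 in the single-exon gene of chromosome 11 (adjusted p = 0.0216). The difference was -2.02 in the 1068-base single-exon gene of chromosome 5 (adjusted p = 0.0283), -0.85 in the 14-exon gene of chromosome 10 (adjusted p = 0.0313) and -1.35 in the 5-exon gene of chromosome 13 (adjusted p = 0.0276). In the first of those 3 elicited 6 h replicate 1 had 132 CPM, against 41.6 and 44.2 CPM in the other elicited libraries.

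In groups of 4 libraries, 1 library lay far from the others for 6 of the 72 groups examined (the 17 described genes and the median over members, at 4 times), by Dixon's criterion for the gap to the nearest other library over the range, where chance gives about 1 in 20. At 12 h the highest elicited library had 6.47 CPM in the 2-exon gene of chromosome 7, against 2.99 CPM in the next. In the 2-exon gene of Scaffold65 it had 13 CPM, against 1.09 CPM in the next. At 48 h the highest elicited library had 0.432 CPM in the 873-base gene of chromosome 6 (next 0.112), 0.614 CPM in the 810-base gene of chromosome 6 (next 0.276) and 176 CPM in the 2-exon gene of chromosome 14 (next 113). At 72 h the lowest elicited library of the single-exon gene of chromosome 9 had 3.04 CPM, against 4.92 CPM in the next. The causes were not tested.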

How the results depend on the processing

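Under the alternatives that kept or re-chose the members, 141 values of counts, medians and shares stayed within the limits set for them and 35 moved, and no result was reversed. Of the mean fold changes of described genes, in the settings that refitted the model, 114 kept their call and 4 did not: the 2 genes raised most at 0.5 h were called in the fit of 6, 12 and 24 h libraries alone, and the Scaffold65 gene was not called with replicate numbers of the titles as a block (1.10, adjusted p = 0.13) or without the 2 high libraries. DESeq2 gave the Scaffold65 gene no adjusted p. Leaving out single libraries ended the call of the 5-exon gene of chromosome 13 in 5 fits and of the Scaffold65 gene in 1, and added one for the 4-exon gene of chromosome 10 in 3. The cause of the changes was not tested, except that smaller or larger sets give other counts.

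With scaling by library size 9 members were higher at 12 h, 1 rose in elicited cells between 6 and 24 h, and the median log2 fold change at 24 h was 0.44. With only the 6, 12 and 24 h libraries 1 rose in elicited cells. With the highest libraries of elicited 6 h (replicate 1) and 12 h (replicate 4) both left out, chosen after seeing the data, 2 were higher at 6 h, 8 at 12 h and 1 rose in elicited cells, and the effect was greater at 24 than at 6 h for 4 and smaller for 0. Members chosen on TMM-scaled CPM numbered 66: 8 were higher at 6 h, 4 lower at 24 h, 40 higher and 2 lower on average, 5 rose and 43 fell in elicited cells, 6 rose and 32 fell in controls, and the median at 24 h was 0.44. With an L of at least 1 there were 17 members: 7 were higher and 0 lower at 12 h, 6 higher and 0 lower at 24 h, 14 higher and 0 lower on average, 14 fell in elicited cells, 0 rose and 10 fell in controls, 1 had a greater effect at 24 h, and the medians were 1.11 at 12 h and 0.94 at 24 h.

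Leaving out each library in turn, with members chosen again for 0.5, 48 and 72 h, gave 29 to 57 members and a share of single-exon genes of 34.4% to 55.2%. Members higher at 6, 12 and 24 h numbered 2 to 10, 5 to 21 and 2 to 17, and those lower 0, 0 to 2 and 0 to 4. On average 18 to 37 were higher and 0 to 3 lower. In elicited cells 0 to 4 rose and 17 to 39 fell, and in controls 0 to 4 rose and 12 to 29 fell. The effect was greater at 24 h for 1 to 5 and smaller for 0 to 6. Medians were 0.28 to 0.81 at 6 h, 0.55 to 1.03 at 12 h and 0.40 to 0.98 at 24 h. The shares of all tested genes called in these refits were not counted.

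No clear shared deviation was seen between elicited and control libraries with the same replicate number. Their deviations correlated at -0.0884 to 0.141 for the numbers in the titles and at -0.124 to 0.0746 for those in the descriptions. Such correlations cannot show whether the flasks were paired. With the title numbers as a replicate block 8 members were higher at 12 h, and with the description numbers 7 were higher at 12 h and 1 rose in elicited cells; the block moved no other count by over 1.5 times. Depth limits the lowest members: 11 were below 1 CPM in controls and 6 in elicited cells at 24 h, and for the 873-base gene of chromosome 6 the counting interval of its ratio there ran from 2.16 to 539.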
